A study of Mus musculus with 5 samples.

Results

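Lymphocytes and myeloid cells part ways in the bone marrow, and genes that define B cells, T cells and natural killer cells are largely kept silent in myeloid progenitors. DNA methylation, the addition of a methyl group to cytosines that precede a guanine (CpG), is one layer of that control. Around start sites it usually goes with silence, and within gene bodies it is common in active genes as well. The 7 genes described here are landmarks of lymphoid development. Dntt encodes terminal deoxynucleotidyl transferase, which adds untemplated nucleotides to the joints of rearranging antigen receptor genes in early lymphoid cells. Pax5 encodes the transcription factor of B cell commitment, and Cd37 a tetraspanin of leukocytes that is abundant on mature B cells. Bcl11b encodes the zinc finger factor of T cell commitment, and Cd3e a chain of the CD3 complex that carries T cell receptor signals. Tbx21 and Eomes encode the T-box factors T-bet and eomesodermin of natural killer cells and effector T cells.

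The members are the CpG positions that the authors listed as higher or lower in G5 mice and assigned to one of these 7 gene symbols. There were 13 such positions, of 4688 listed in all, and each was a separate CpG. Of the 13, 11 were listed as higher in G5 and 2 as lower, and both lower ones lay in Bcl11b. Bcl11b had 5 positions, Dntt 3, and Pax5, Cd37, Cd3e, Tbx21 and Eomes had 1 each.

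The cells were common myeloid progenitors (CMP), sorted by flow cytometry from bone marrow of mice on a background given as mainly C576BL/6. G0 mice carried the TERTER allele, an oestrogen receptor fusion of telomerase reverse transcriptase, on 1 chromosome (TERTER/+) and are called normal. G5 mice carried it on both (TERTER/ER) and are described as having short telomeres, so the allele is present in both groups. There were 3 pools of G0 mice and 2 pools of G5 mice, with ages not given in the sources used here. Methylation was read by reduced representation bisulfite sequencing, in which the enzyme MspI cuts at CCGG and the ends of the fragments are sequenced after bisulfite has converted unmethylated cytosines. The methylation level of a position is the percentage of its reads that were methylated. The tables give no read depth, so no counting interval can be set on any level, and they hold no expression values, so the sorted cell type was not checked by its markers.

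The stretches of reference sequence that hold the positions described first are given below, from GRCm38, plus strand, 5′ to 3′, with the listed CpGs in capitals. They show that the listed CpG was usually 1 of several in its stretch, and where it lies against the CCGG that starts a read.
Dntt, intron 3, chr19:41039237-41039403: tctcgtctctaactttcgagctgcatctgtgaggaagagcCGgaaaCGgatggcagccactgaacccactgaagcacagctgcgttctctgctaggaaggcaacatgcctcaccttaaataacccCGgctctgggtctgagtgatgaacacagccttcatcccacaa
Pax5, upstream island shore, chr4:44714291-44714372: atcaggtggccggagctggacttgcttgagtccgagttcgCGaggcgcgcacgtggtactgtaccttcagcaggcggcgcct
Bcl11b, upstream island shore, chr12:108005010-108005091: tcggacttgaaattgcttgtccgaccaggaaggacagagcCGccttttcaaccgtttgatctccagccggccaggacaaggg
Bcl11b, intron 3, lower in G5, chr12:107963454-107963597: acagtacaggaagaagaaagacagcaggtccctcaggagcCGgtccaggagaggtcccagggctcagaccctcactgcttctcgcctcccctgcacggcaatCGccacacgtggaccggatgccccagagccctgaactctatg
Tbx21, last exon, chr11:97099066-97099147: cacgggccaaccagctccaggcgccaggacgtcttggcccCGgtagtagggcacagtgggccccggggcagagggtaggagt
Cd37, island between Cd37 and Slc6a16, chr7:45240934-45241015: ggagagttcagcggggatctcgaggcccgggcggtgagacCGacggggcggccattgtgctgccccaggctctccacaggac

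Methylation in the Dntt gene body was higher in both G5 pools at 3 neighbouring CpGs, with a mean difference of 21.1 percentage points. The positions, 41039276, 41039282 and 41039362 on chromosome 19, lay 10003, 10009 and 10089 bp downstream of the authors' start site, in intron 3 of a GENCODE transcript with 12 exons. They fall on a single MspI fragment of 85 bp that holds 4 CpGs, the end site included, of which 3 were listed. In the Dntt sequence above the first and last capitals belong to the CCGG sites at both ends of that fragment. Averaged over the 3 positions, the G0 pools stood at 28.1%, 29.2% and 40.4% and the G5 pools at 48.4% and 59.1%. The groups did not overlap, and G0 pool 3 was the G0 pool nearest to G5. G0 averaged 32.6% ± 6.82 (SD, n = 3), whereas G5 averaged 53.7% ± 7.57 (SD, n = 2).

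The spread between pools was weighed with limma's moderated test on the percent values, run over all listed positions of both tables with Benjamini-Hochberg adjustment. All listed positions had been selected by the authors for a difference between these same samples, so a call states that the difference is large against the pools' spread and is no independent evidence. All 3 Dntt positions passed an adjusted p of 0.05, by a small margin. Position 41039276 differed by 23.8 points (limma SE 6.31, adjusted p = 0.0458). Position 41039282 differed by 21.7 points (limma adjusted p = 0.0496), and 41039362 by 17.9 points (limma adjusted p = 0.0483). On the logit scale 0 of the 3 passed, with limma adjusted p from 0.0604 to 0.0846. Among the 13 members 5 passed, all of them among the 11 higher ones, where 33.2% of all higher positions passed. The 3 Dntt positions share a single fragment, so they are not independent measurements, and they make up 3 of the 5. Of the 2 lower members 0 passed by limma, 1 of them had an unadjusted p under 0.05, and 33% of all lower positions passed. With a G0 pool left out the calls thinned in the tables as a whole and among the members. Without G0 pool 1, 2 or 3 none of the 5 members passed, and 0, 9 and 0 of all 2618 higher positions did. Without G5 pool 1 the number of higher members past limma was 3, of which 2 were among the 5, and without G5 pool 2 it was 2, of which 1 was, while 844 and 782 of all higher positions passed.

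**Figure D1:**
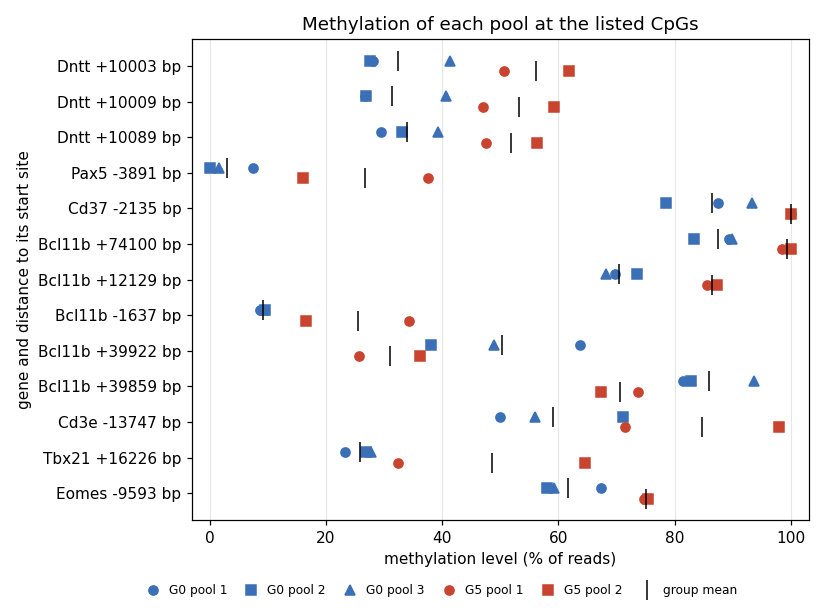
Methylation level (% of reads, x axis) of each pool at the 13 listed CpGs, named by gene and distance to the authors' start site (y axis). Blue symbols are the 3 G0 pools, red symbols the 2 G5 pools and black ticks the group means. At each CpG every red symbol lies on one side of every blue symbol, with the smallest gap, 0.376 points, at Cd3e.

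Upstream of Pax5, a CpG that was nearly unmethylated in G0 was partly methylated in G5. It lies at chromosome 4, 44714330, 3891 bp upstream of the authors' start site, in an island shore and in no transcript of the GENCODE annotation. The G0 pools stood at 7.41%, 0% and 1.56%, and the G5 pools at 37.5% and 16.0%. Both G5 pools were above every G0 pool, and G5 pool 1 was far above G5 pool 2. The means were 2.99% ± 3.91 (SD, n = 3) and 26.8% ± 15.2 (SD, n = 2), a difference of 23.8 points (limma SE 7.09, adjusted p = 0.0496). Without G5 pool 1 the difference was 13.1 points and without G5 pool 2 it was 34.5 points. The difference in the authors' deposited table is 17.9 points. The fragment is 136 bp long with 12 CpGs, of which this CpG alone was listed.

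The upstream shore of Bcl11b had a like profile. The listed CpG, at chromosome 12, 108005050, lies 1637 bp upstream of the start site, beyond the authors' promoter window, which reaches 1 kb upstream and 500 bp downstream. The G0 pools stood at 8.6%, 9.52% and 9.28%, and the G5 pools at 34.3% and 16.7%. The G0 pools were within 1 point of each other, and G5 pool 1 again stood higher than G5 pool 2. The difference was 16.4 points, and limma's adjusted p was 0.0638 (SE 6.02), so it did not pass with all pools. Without G5 pool 2 it was 25.2 points (limma adjusted p = 0.0318), and without G5 pool 1 it was 7.53 points. Pax5 and Bcl11b were the only members flagged as shores, and they had the lowest G0 levels of the 13.

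Bcl11b was the member with positions in both directions. Its gene body had 2 higher CpGs, at 107991286 in intron 1 and at 107929315 in intron 3 of a transcript with 4 exons, 12129 and 74100 bp downstream of the start site. At 107991286 the G0 pools stood at 69.8%, 73.5% and 68.1% and the G5 pools at 85.5% and 87.2%. Pools of each group were close, and the gap of 12.1 points between the groups was the widest of the 13. The difference was 15.9 points (limma SE 4.16, adjusted p = 0.0456). At 107929315 the level was already high in G0, at 89.4%, 83.3% and 89.8%, and was 98.4% and 100% in G5. That difference of 11.7 points was the smallest among the members, and limma's adjusted p was 0.0642. On the logit scale, which stretches levels near 100%, it passed with an adjusted p of 0.018 by limma. That scale used an offset of 1 point, which sets the value of a level of 100%, so the result depends on the offset.

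The 2 lower CpGs of Bcl11b lay between these, at 107963493 and 107963556 in intron 3, 39922 and 39859 bp from the start site. They share a single MspI fragment of 76 bp and lie towards its opposite ends, so they are not independent measurements. At 107963493 the G0 pools ranged widely, at 63.8%, 38.0% and 48.9%, against 25.6% and 36.3% in G5. The nearest pools of the groups were 1.76 points apart there. The difference was -19.3 points (limma SE 8.24, adjusted p = 0.0794). At 107963556 the levels were 81.4%, 82.8% and 93.6% in G0 and 73.8% and 67.3% in G5, a difference of -15.4 points (limma SE 5.47, adjusted p = 0.0613). Within the fragment the level differed by position: the G0 mean was 50.2% at one CpG and 85.9% at the other. Over both CpGs the G0 pools averaged 68.1% ± 6.66 (SD, n = 3), and the G5 pools 50.8% ± 1.49 (SD, n = 2). All 5 Bcl11b positions span the gene from the upstream shore to 74100 bp inside it, and no position of another gene was listed within 50 kb of any of them or of the other members.

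**Figure D2:**
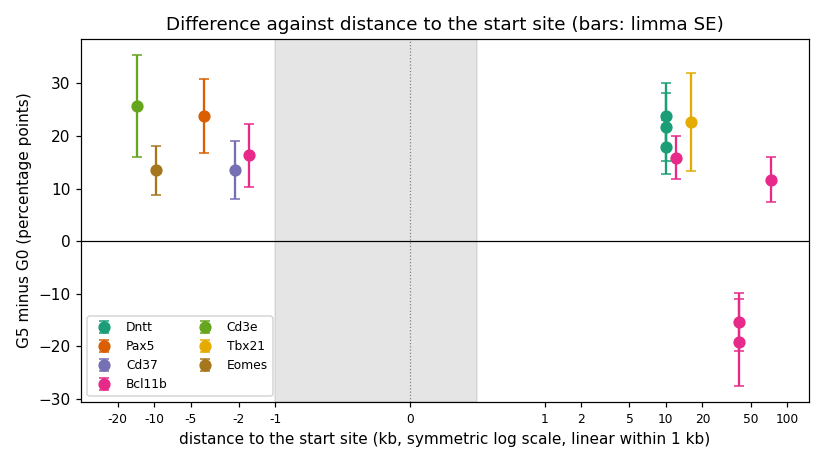
Difference between G5 and G0 means (percentage points, y axis) against the authors' distance to the start site (kb, symmetric log x axis, linear within 1 kb) for the 13 CpGs, coloured by gene. Bars are limma's standard errors. The grey band is the authors' promoter window around the start site of the assigned gene, which holds 0 of the 13. The 2 Bcl11b points below 0 lie about 40 kb downstream.

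For Cd3e the listed CpG was far from the gene, 13747 bp upstream of its start site at chromosome 9, 45023336. No GENCODE transcript covers it, and the nearest protein-coding genes were Cd3e itself at 13709 bp and Mpzl2 at 16463 bp. The G0 pools stood at 50%, 71.1% and 56.0%, and the G5 pools at 71.4% and 97.9%. G5 pool 1 exceeded G0 pool 2 by 0.376 points only. The difference of 25.6 points was the largest among the members and had the largest error (limma SE 9.70, adjusted p = 0.0660). Without G5 pool 2 it was 12.4 points and without G5 pool 1 it was 38.9 points.

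Tbx21 was the single member listed in an exon. The CpG at chromosome 11, 97099106, lies 16226 bp downstream of the start site in the coding part of exon 6, the last exon of the gene, which spans 97098071 to 97099378. The G0 pools stood close together at 23.3%, 26.9% and 27.7%, while the G5 pools stood at 32.5% and 64.6%. G5 pool 1 was 4.76 points above the highest G0 pool, and most of the difference came from G5 pool 2. The mean difference was 22.6 points (limma SE 9.30, adjusted p = 0.0742). Without G5 pool 2 it was 6.54 points, and without G5 pool 1 it was 38.7 points (limma adjusted p = 0.0315).

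The other T-box gene, Eomes, had its listed CpG 9593 bp upstream of the start site, at chromosome 9, 118468596, in no transcript. The nearest annotated gene was the snRNA gene Gm22479 at 1532 bp, ahead of Eomes at 9616 bp. The G0 pools stood at 67.4%, 58.1% and 59.2%, and both G5 pools were above them at 74.7% and 75.4%. The G5 pools differed by 0.726 points. The difference was 13.5 points (limma SE 4.70, adjusted p = 0.0594).

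The position assigned to Cd37 lies nearer to another gene. At chromosome 7, 45240973, it is 2135 bp upstream of the authors' Cd37 start site, but 111 bp from the start of Slc6a16, a transporter family gene on the opposite strand that GENCODE begins at 45241085. Cd37 as GENCODE annotates it begins 1859 bp away. It was the single member in a CpG island, on a 123 bp fragment with 11 CpGs. The G0 pools were at 87.5%, 78.6% and 93.3%, and both G5 pools were at 100%. The difference was 13.5 points (limma SE 5.48, adjusted p = 0.0722). On the logit scale it passed with an adjusted p of 0.0134 by limma. Both G5 values on that scale are set by the offset of 1 point, since both levels are 100%, so that result depends on the offset. The authors' q-value was the smallest among the members, at 7.88e-05 in the authors' deposited table, and the largest was 0.00939 at the Bcl11b position 107963493, just under their limit of 0.01.

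Set side by side, all 13 CpGs separated the groups without overlap. That compares with 86.9% of all higher positions and 83.9% of all lower positions, so the members' count is close to what the tables hold throughout. The median absolute difference was 17.9 points over the members and 16.3 points over all listed positions. The G5 pools disagreed in size: G5 pool 2 was farther from G0 at 9 of 13 CpGs, G5 pool 1 at 3, and at the Cd37 position they were equal. Over all listed positions G5 pool 2 was farther at 46.9%. Of the 9, 3 are the Dntt CpGs on a single fragment. At Eomes and the higher intronic Bcl11b CpGs, also among the 9, the G5 pools were only 0.726 to 1.67 points apart. At 7 of the 13 the G5 pools were over 10 points apart, against 43% of all listed positions. At 11 of the 13 both G5 pools were over 10 points from the G0 mean. The exceptions were the Tbx21 CpG in G5 pool 1 and the upstream Bcl11b CpG in G5 pool 2. Positions were listed for a group difference of at least 10 points, which does not require both G5 pools to pass 10 points. The share of such positions over all listed positions was not computed, so the count is not read as a result about the members.

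**Figure D3:**
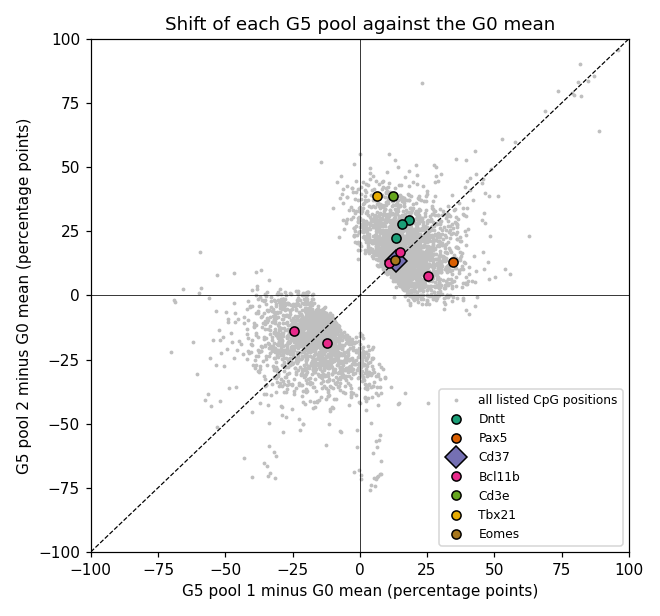
Shift of G5 pool 1 (x axis) and of G5 pool 2 (y axis) from the G0 mean, in percentage points, at the 13 member CpGs (coloured by gene, Cd37 as a diamond under Eomes) and at all 4688 listed positions (grey). The dashed line marks equal shifts. Tbx21 and Cd3e lie far above it, with 38.7 and 38.9 points in G5 pool 2, and Pax5 lies below it, with 34.5 points in G5 pool 1.

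By the authors' flags, the members lay outside promoters. Of the 13 CpGs 0 were flagged as lying in the promoter window, against 28% of all listed positions. The flag does not cover every start site in GENCODE. The position assigned to Cd37 carries no promoter flag but lies 111 bp upstream of the GENCODE start of Slc6a16. By the same flags 7 were intronic, 1 was exonic and 5 were in neither, and the median distance to a start site was 10089 bp against 7744 bp for all listed positions. In a CpG island lay 1 (7.69%), against 36.5% of all listed positions, and 2 lay in shores (15.4% against 11.9%). These shares are descriptions of few CpGs on 10 fragments. A promoter CpG of these genes that is not listed may have been measured without passing or may not have been measured.

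Surrounding CpG density was low to moderate. Within 100 bp on either side the members had 2 to 16 CpGs, with a median of 8, against 10 over all listed positions, 21 over those in islands, 9 over those in shores and 7 over those outside both. The island CpG assigned to Cd37 and the shore CpGs of Pax5 and Bcl11b had the densest surroundings, with 16, 14 and 12 CpGs. The levels there lay far apart: 86.5% in G0 at the first and 2.99% and 9.14% at the others. The Tbx21 exon CpG, with 11 CpGs around it, had 25.9% in G0. The intronic Bcl11b CpGs listed as higher had 2 and 3 CpGs around them and 70.5% and 87.5% in G0.

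**Figure D4:**
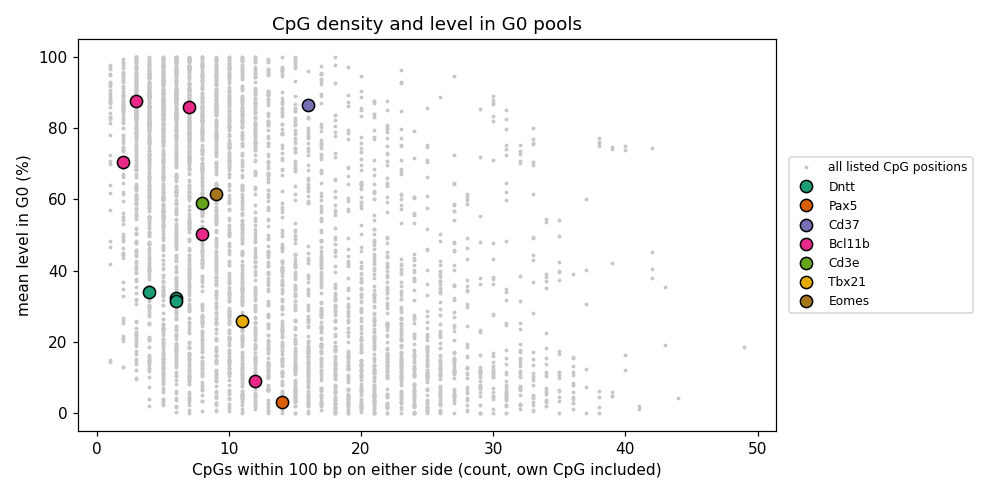
Mean G0 level (%, y axis) against the number of CpGs within 100 bp on either side, own CpG included (x axis), for the 13 member CpGs (coloured by gene) and all 4688 listed positions (grey). Pax5 and the upstream Bcl11b CpG sit at the bottom, below 10%, and Cd37 sits high at 16 CpGs.

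The enzyme sites were near throughout. In 7 of the 13 (53.8%) the listed CpG was itself part of a CCGG, against 47.6% of all listed positions, and the fragments were 70 to 136 bp long. Short sequence motifs were searched within 50 bp on either side, on both strands, and matches are letters only. The E-box CANNTG, bound by basic helix-loop-helix factors, was found around 8 members (61.5%) and around 35.2% of all listed positions. The 3 Dntt CpGs, whose windows overlap, account for 3 of the 8. A TGTGGT motif, the core of Runx sites, was found around 0 members and 4.61% of all listed positions. An AGATAA motif, of the GATA family, was found around 0 members and 2.13%, and GAGGAAGT, of PU.1, around 0 members and 0.448%.

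Other genes of lymphoid development gave few listed positions. Of 81 further genes in lists for early lymphoid cells and recombination, B cells, T cells and natural killer and innate lymphoid cells, 4 had any. They had 6 positions, 3 higher and 3 lower, and 0 lay in a promoter window. In the early lymphoid list 0 of 11 further genes were listed and in the natural killer list 0 of 18. The median signed difference was -1.54 points over the 6 positions, 16.4 points over the 13 members and 10.9 points over all listed positions, of which 55.8% were higher. With 3 higher and 3 lower, the median of the 6 falls between the directions and describes no single CpG. Their median absolute difference was 14.3 points.

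Of 23 further B cell genes 3 had a position, each 1 higher CpG, and 0 of these passed limma. Cr2, which encodes a complement receptor of B cells, is named for the largest difference in that list. Its CpG had G0 levels of 70.9%, 64.0% and 53.8% against G5 levels of 56.5% and 98.9%, 36487 bp upstream of the start site. The groups overlapped there, and the difference was 14.8 points (limma adjusted p = 0.284). Bach2, a repressor gene of B cells, was named after its values were seen. The Bach2 CpG, 197514 bp upstream, had 67.9%, 82.7% and 88.1% in the G0 pools, with 90.5% and 90.2% in the G5 pools (limma adjusted p = 0.168).

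Among 29 further T cell genes only Runx3 was listed, and it went the other way. Runx3 encodes a Runt factor of cytotoxic T cells, and its 3 CpGs on chromosome 4 all stood lower in G5, 40793 to 94096 bp upstream of the start site. The CpG at 135079852 had levels of 53.6%, 47.3% and 33.0% in the G0 pools but 13.1% and 23.9% in the G5 pools, a difference of -26.1 points (limma adjusted p = 0.0468). The CpG at 135026549 differed by -23.0 points (limma adjusted p = 0.0465) and that at 135074555 by -13.8 points (limma adjusted p = 0.12). Both G5 pools were below every G0 pool at each of the 3 CpGs.

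In a comparison list of 20 myeloid, erythroid and megakaryocytic genes, 5 had listed positions, 6 higher and 3 lower, and 0 in a promoter window. Limma passed 3 of the 6 and 1 of the 3, against 33.2% of all higher and 33% of all lower positions. Some of the 9 CpGs are close neighbours, so they are not all independent measurements. By gene, 4 of the 5 had higher positions only and 1 had lower positions only. The latter was Gata2, a factor of stem and progenitor cells. It had the most positions, with 3 lower CpGs 32474 to 46556 bp upstream of its start site. At 88166190 on chromosome 6 the G0 pools stood at 23.4%, 23.0% and 33.8% and the G5 pools at 1.24% and 10%, a difference of -21.1 points (limma adjusted p = 0.0456). The share of higher positions was 66.7% in that list and 84.6% among the 7 lymphoid genes, with 9 and 13 positions, and no test of that contrast was made since the lists were chosen with results known.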

How the data were processed

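Genomic DNA of 3 G0 and 2 G5 pools of sorted progenitors, 14000 to 30000 cells and at least 45 ng each, gave 29 to 38 M reads a sample, of which about 63% aligned, per the labels. The submitters' processing notes name Bismark 0.7.11, Bowtie, mm10 and methylKit, and the design text Fisher's exact test, which on pooled reads does not count the spread between pools. A minimum coverage is not given in the sources used here. For each position the authors deposited the percent methylation of each sample, a p-value and a q-value, a difference in percentage points and annotation, per the file headers. The largest q-value listed was just under 0.01 and the smallest absolute difference just over 10 points, and CpGs outside the lists are not analysed here.

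Depth per position is unknown, so the count model set for read counts was not run. Limma 3.58.1 (R 4.3.3) was fitted to the percent values of all 4688 positions of both tables, with Benjamini-Hochberg adjustment. It was also run on simulated data in which a small part of the positions was shifted. All positions here were selected for a difference, so that run does not measure how the calls behave on them. With 3 against 2 samples an exact permutation test cannot go below p = 0.1. Group means and SDs are over pools, which the labels call separate pools of mice. Samples were grouped by their titles, and 0 sample columns lay outside the series. All positions fell on a CpG of GRCm38, the assembly of mm10, 2332 on its cytosine and 2356 on the base before. This was read as cytosines of both strands counted from 0, and printed positions keep that count, while sequence ranges count from 1. Gene names follow the authors' assignment to a start site, which is not always the nearest in GENCODE, as at the Cd37 position. Transcripts are from GENCODE. Members, lists and tests were chosen with earlier results of these data known. Named outside the members were, per list, genes with a promoter position, then the gene with the largest difference, and for the myeloid list the gene with the most positions. A further B cell gene is not reported here. Alternatives were each pool left out, a logit scale, a replicate block, levels of 20 to 80%, a q-value under 0.001, the authors' difference, 1 value per CpG, medians and positions within 10 kb. Other steps used Python 3.11.15, pandas 2.3.3, numpy 2.4.6, pysam 0.24.0 and matplotlib 3.10.9.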

Additional observations from a re-analysis of the deposited data

How the results depend on the processing

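Since the groups do not overlap at any of the 13 CpGs, leaving out a pool can neither turn a direction nor bring an overlap, and neither is a sign of stability. Sizes with 1 pool left out ranged from 15.8 to 26.5 points for Dntt, 13.1 to 34.5 for Pax5, 9.58 to 17.0 for Cd37, 12.3 to 17.1 for the higher Bcl11b CpGs, -21.1 to -15.1 for the lower ones, 12.4 to 38.9 for Cd3e, 6.54 to 38.7 for Tbx21 and 11.8 to 16.4 for Eomes. Counts past limma were less stable. Against 5 higher members they ranged from 0 to 3 with 1 pool left out, 0 lower members passed in each case, and over all listed positions they ranged from 0 to 844 higher (868 with all pools) and from 0 to 708 lower (683 with all pools). Where a G5 pool was left out the lone sample is assumed to vary like the others. On the logit scale 4 higher members passed, 2 of them among the 5, and 1056 of all 2618 higher positions did. The Cd37 CpG and the Bcl11b CpG at 107929315 were among the 4. Their G5 levels of 98.4% to 100% make that result depend on the offset of 1 point. At an authors' q-value under 0.001, 4 higher members remain in the table, of which 2 passed limma, against 680 of all 1134 higher positions at that limit, and no lower member remains; all 4 separate the groups, as they do in the full table; fewer positions are tested there. With the replicate block 0 higher members, 0 of all higher and 0 of all lower positions passed by limma, with 5, 835 and 691 at an unadjusted p under 0.05. The labels do not tie equal pool numbers, and the deviations of equally numbered pools correlated at 0.0124 and 0.0476, so the numbers were not taken as pairs. Dntt, Cd3e, Tbx21 and the lower Bcl11b CpGs have no position within 10 kb. Why calls differ between these settings was not tested otherwise.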
